A study of Mus musculus with 4 samples.

Results

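The Zfp genes, mouse genes named "zinc finger protein" with a number, were examined in B16F10 cells, a pigmented mouse melanoma line, after treatment with plumbagin, a plant naphthoquinone. A gene was taken as a member when its symbol was Zfp followed by a number, with or without a letter, and its mean log2 value over the 4 arrays was above 5.05. The limit is the level that 95% of 41 Olfr genes (olfactory receptors, silent in most tissues) stayed under, and it is called the background below. Of 295 measured Zfp genes 174 passed, out of 17097 named genes, and each was read through its brightest probe set (a probe set is the group of array probes that reads 1 transcript). The members were thus chosen by their mean levels, which are given below as a description. The 2 control samples (control 1 and control 2) had 0 µM plumbagin, with MilliQ water in its place, and the 2 treated samples (plumbagin 1 and plumbagin 2) had 2 µM for 24 h. All 4 samples were of the B16F10 line, 1 line that stands for 1 tumour, and the labels give no other agent or genotype. Nothing in the labels states that both samples of a group came from different cultures, and the p-values rest on a spread that may be technical.

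Most Zfp genes encode proteins that carry tandem C2H2 zinc fingers, small folds that hold a zinc ion between cysteines and histidines and read DNA bases. Many also carry a KRAB box, which binds the corepressor TRIM28; TRIM28 brings the histone methyltransferase SETDB1, and together they silence transposable elements, imprinted alleles and other targets in mammalian cells. KRAB genes arose by tandem duplication and lie in clusters of close relatives, which makes some of their transcripts hard to tell apart with short probes. The shared symbol is a name and not a function: some members act on ribosomes, RNA or the mitotic spindle.

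Member means lay between 5.05 and 9.53, with a median of 6.16, against a median of 7.27 for the 8479 other named genes above the background. Of the 174 members, 70 had a mean below 6, 53 lay between 6 and 7, 38 between 7 and 8, and 13 at 8 or higher. All 4 arrays were above the background in 146 members, while 28 had at least 1 array at or below it. Just inside the limit were Zfp93 (mean 5.05) and Zfp316 (5.06), and just outside it were Zfp113 (5.05) and Zfp825 (5.01). Brightness differs between probe sets for technical reasons, so these levels do not rank transcripts against each other.

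The brightest members were Zfp706 and Zfp622. Zfp622, a factor that helps mature the large ribosomal subunit, read 9.49 and 9.47 in controls 1 and 2 and 9.13 and 9.44 in plumbagin 1 and 2 (log2 values, as all levels below). Zfp706, a small protein with a single zinc finger, read 9.71 and 9.56 in the controls and 9.32 and 9.52 with plumbagin. In both genes plumbagin 1 was the low array, and plumbagin 2 lay just under control 2, by 0.030 in Zfp622 and 0.033 in Zfp706. Zfp330, a nucleolar protein, Zfp871, Zfp24, a SCAN-domain factor, Zfp275, Zfp131, a BTB-domain factor, Zfp207, a kinetochore protein that loads BUB3, Zfp346, which binds double-stranded RNA, and Zfp445, a KRAB protein that maintains imprints, completed the 10 brightest, with means from 8.30 to 8.77.

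At the median, the untreated arrays differed from each other over the Zfp genes by more than the treatment groups did, and this touches every result that follows. The first is a difference between single arrays and the second between means of 2, so they are not like measures. The treated arrays also differed from each other, with a median plumbagin 1 minus plumbagin 2 of -0.16. Control 1 was below control 2 in 105 of the 174 members, with a median difference of -0.14 (log2, control 1 minus control 2), whereas the other genes above the background had a median of 0.054. In 24 members control 1 was below control 2 by over 1 log2 unit, that is over 2-fold. This is 13.8% of the members, against 0.854% of all named genes and 1.58% of the 8653 above the background. Control 1 was above control 2 by as much in 0 members, against 0.076% and 0.139%. The limit of 1 log2 unit was set after these values were seen. These are single arrays, so the difference has no replicate check and no test.

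**Figure D1:**
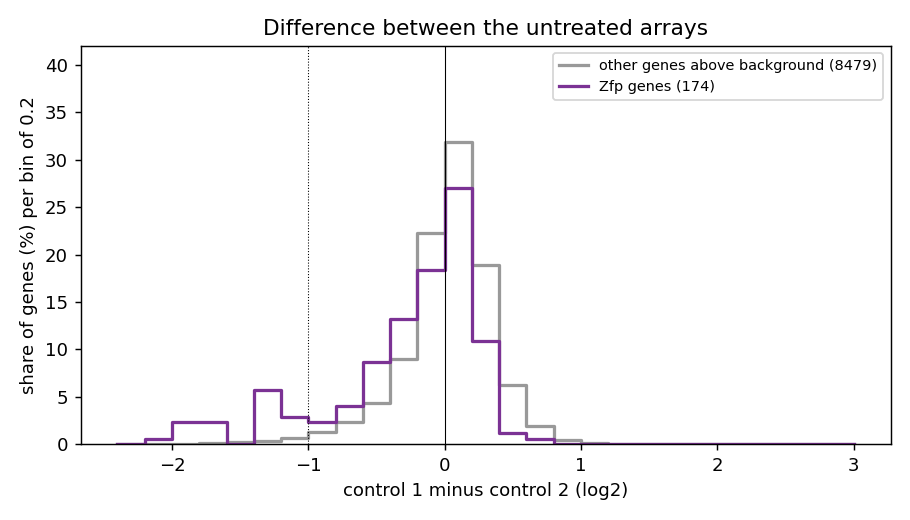
Control 1 minus control 2 (log2, horizontal axis) as the share of genes per bin of 0.2 (vertical axis, %), for the 174 Zfp members (purple) and the 8479 other named genes above the background (grey). The purple line has a shoulder left of the dotted line at -1, where 24 members lie, and its median is -0.14 against 0.054 for the grey line.

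Control 1 was the lowest of the 4 arrays in 62 members (35.6%, against 17.2% of the genes above the background), and plumbagin 1 was the lowest in 69 (39.7%, against 41.7%). Control 2 was the highest array in 72 members (41.4%, against 20.1%). In 42 members both plumbagin arrays lay between a low control 1 and a high control 2, which is 24.1% against 5.99% of the genes above the background. The opposite nesting, with control 2 lowest, was seen in 17 members (9.77%, against 12.8%). Plumbagin 1 was below plumbagin 2 in 132 members, with a median of -0.16.

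The treated and untreated arrays were then compared, for the question of whether Zfp transcripts differ after plumbagin. With limma, 0 of the 174 members passed an adjusted p of 0.05, as did 0 of all 17097 genes (0% called), and the adjusted p was 1 for every member. At an unadjusted p of 0.05, 2 members were higher (1.15%, against 0.257% of all genes and 0.22% of those above the background) and 2 were lower (1.15%, against 0.731% and 1.2%). The 2 higher members were Zfp354c and Zfp950, both named when the gene set was proposed, with results of these data in view. Their share was thus not independent of that choice and supports nothing. Member differences ranged from -0.57 to 0.60 (log2, plumbagin minus control). Their median standard error was 0.15 (n = 2 per group), and the median 95% interval reached 0.40 to either side. An exact permutation test of 2 against 2 arrays cannot go below a two-sided p of 0.333, so none was used for single genes.

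The median difference over the members was 0.0054, with 89 members above 0 (51.1%, against 34.9% of the genes above the background) and 85 below. The same median was -0.012 over all genes and -0.052 over the other genes above the background, of which 2935 were higher and 5544 lower. Without control 1 the members' median was -0.11, with 50 above 0 and 124 below, and that of the other genes was -0.026. Without plumbagin 2 the members' median was -0.088, without plumbagin 1 it was 0.046, and without control 2 it was -0.013. The near-even split of the members thus moved with more than 1 array, by most without control 1 and without plumbagin 2.

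Within the samples numbered 1 the members' median was -0.045 and within those numbered 2 it was -0.030, against -0.12 and -0.0011 for the other genes above the background. The labels do not state that a number pairs samples. The differences were wide in number 1, where 70 members were over 0.3 in size (40.2%, against 27.8% of the genes above the background), and narrow in number 2, where 11 were (6.32%, against 2.06%). In 24 members plumbagin was higher in both numbers (13.8%, against 16.9%), and in 56 it was lower in both (32.2%, against 36.8%). In 48 members it was higher in number 1 and lower in number 2 (27.6%, against 13.9%).

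**Figure D2:**
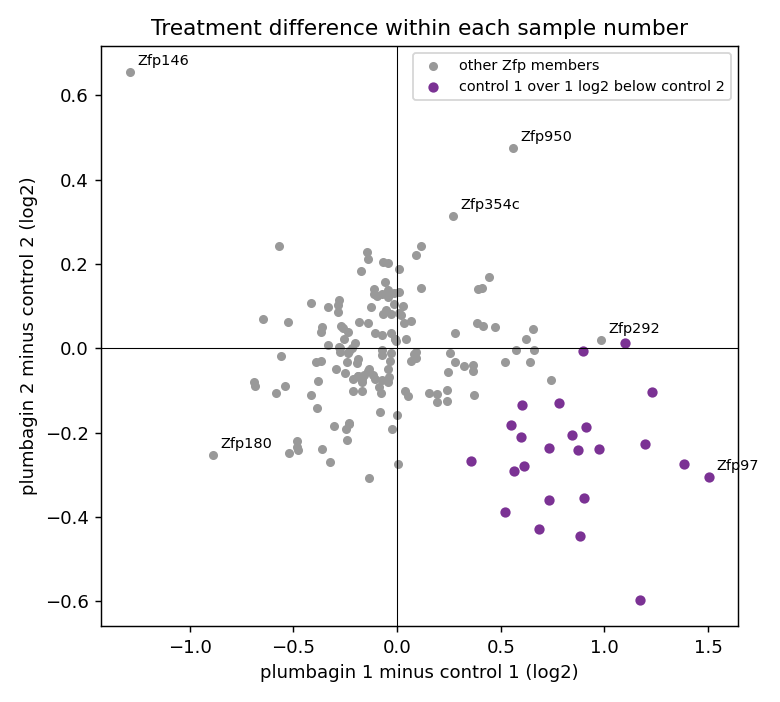
Plumbagin 1 minus control 1 (horizontal axis, log2) against plumbagin 2 minus control 2 (vertical axis, log2), 1 point per Zfp member. The 24 members whose control 1 is over 1 log2 unit below control 2 (purple) all lie right of 0, and 23 of them lie below 0. That choice largely fixes this because both axes subtract a control. Zfp950 and Zfp354c are above 0 on both axes, which is fixed for members with both plumbagin arrays above both controls.

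The members were also set against genes of like brightness. Between mean levels of 5 and 6 the median was 0.030 for 70 members and -0.015 for 1720 other genes. Between 6 and 7 it was 0.0073 for 53 members and -0.067 for 1984 other genes. Between 7 and 8 it was -0.10 for 38 members and -0.083 for 1986 other genes, and between 8 and 9 it was 0.025 for 11 members and -0.061 for 1443. Between 9 and 10 it was -0.21 for the 2 members (Zfp706 and Zfp622) and -0.037 for 826 other genes. The members thus lay above the rest in 3 bands and below it in 2. Taking from each member the median of the other genes in its band of 1 log2 unit left a median of 0.045, and without control 1 this was -0.082. The position of the members relative to genes of their own brightness thus changed sides with 1 array.

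Both plumbagin arrays lay above both controls in 9 members, which is 5.17%, against 10.2% of all genes and 5.67% of those above the background. They lay below both in 29 members, which is 16.7%, against 15.2% and 18.3%. Both shares of the members were near those of the genes above the background. The split between the directions moved with the scaling, for the members and for the other genes alike. After quantile normalization between arrays 15 members were higher (8.62%, against 10.5% of all genes and 8.07% of those above the background) and 23 lower (13.2%, against 15.9% and 14.2%). After cyclic loess 20 were higher (11.5%, against 11.9% and 10.1%) and 20 lower (11.5%, against 14.6% and 12.4%).

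Of the higher members, Zfp950 and Zfp354c had the smallest p. Zfp354c, a KRAB-type repressor, read 6.16 and 6.07 in controls 1 and 2 and 6.43 and 6.39 in plumbagin 1 and 2. Both plumbagin arrays were above both controls, by more than either pair differed within itself. The difference was 0.29 ± 0.08 (log2, SE, n = 2 per group), or 1.22-fold. Zfp950 read 5.33 and 5.64 in the controls and 5.89 and 6.12 with plumbagin. Control 1 was its lowest array and plumbagin 2 its highest. It differed by 0.52 ± 0.15, or 1.43-fold, with the same n. These were the 2 members with the largest positive differences in number 2 after Zfp146, at 0.47 for Zfp950 and 0.31 for Zfp354c, and their differences without control 1 were 0.36 and 0.34. With all probe sets of a gene averaged, including those at or below the background, the differences were 0.32 for Zfp950 and 0.17 for Zfp354c. Both were named when the gene set was proposed, with results of these data in view, so their values are a description.

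The other 7 members with higher plumbagin arrays were Zfp871, Zfp292, Zfp322a, Zfp939, Zfp148, Zfp770 and Zfp316. Zfp871 read 8.48 and 8.69 in the controls and 8.87 and 8.83 with plumbagin, a difference of 0.27 ± 0.11 (log2, SE). Its other 2 probe sets, with means of 5.92 and 7.96, differed by 0.35 and 0.32. In the first of these the groups overlapped, with plumbagin 2 (5.92) below control 2 (5.99). Zfp292 read 5.97 and 6.51 in the controls and 6.96 and 6.53 with plumbagin, and Zfp148, which binds G-rich promoter elements, read 7.20 and 7.67 against 7.82 and 7.69. In both genes plumbagin 2 stood barely above control 2, by 0.019 and 0.022, and the difference came from number 1 (0.98 and 0.62). Of the 5 other probe sets of Zfp148 above the background, 4 were positive, from 0.21 to 0.35, and 1, with a mean of 6.23, was -0.14. Among these the groups were apart only in the probe set with a mean of 5.95. The other probe sets of Zfp292 above the background were positive, from 0.22 to 0.44, but in each plumbagin 2 was below control 2. A plumbagin 2 close to control 2 was also seen in Zfp322a (0.66 in number 1, 0.046 in number 2) and Zfp770 (0.41 and 0.053). Zfp939 differed by 0.16 ± 0.08, with 0.092 in number 1 and 0.22 in number 2. Zfp316, at the edge of the background, differed by 0.066 ± 0.08, and the sign turned to -0.0081 with its probe sets averaged.

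Of the lower members, Zfp428 and Zfp598 had the smallest p. Zfp428 read 6.54 and 6.30 in controls 1 and 2 and 6.02 and 6.05 in plumbagin 1 and 2. The plumbagin arrays were within 0.03 of each other and below both controls. The difference was -0.39 ± 0.11 (log2, SE, n = 2 per group), or 1.31-fold lower. Zfp598, a ubiquitin ligase that marks ribosomes stalled and collided on an mRNA, read 7.11 and 7.09 in the controls and 6.63 and 6.85 with plumbagin. Its controls were nearly equal, and plumbagin 1 was the lowest array. It differed by -0.36 ± 0.11, or 1.28-fold lower, and by -0.35 without control 1.

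The next members by p were Zfp592, Zfp821, Zfp579, Zfp574, Zfp593, Zfp282, Zfp746 and Zfp64, with differences from -0.21 to -0.39. Zfp593, a ribosome biogenesis factor that rides on the large subunit out of the nucleus, read 6.95 and 6.86 in the controls and 6.53 and 6.75 with plumbagin. Zfp746, a KRAB repressor of the PGC-1α gene, read 7.58 and 7.60 against 7.19 and 7.46. In all 10 of these members the number 1 difference was larger in size than the number 2 difference. The number 2 difference ran from -0.077 (Zfp64) to -0.25 (Zfp428). Its sign was fixed by the choice of members with both plumbagin arrays below both controls. The other probe set of Zfp574 had the same sign (-0.19), with both plumbagin arrays below both controls. Those of Zfp592 had it as well (-0.037 and -0.18), but with overlapping groups. In both of them plumbagin 2 was above both controls, at 5.21 against 5.19 and 5.09, and at 5.34 against 5.16 and 5.14. With probe sets averaged the differences of Zfp64 and Zfp282 were smaller, at -0.039 and -0.18, and without probe sets of suffix _x_at or _s_at that of Zfp593 was -0.13. Without plumbagin 1 the differences of Zfp579, Zfp593, Zfp282 and Zfp746 were -0.18, -0.15, -0.19 and -0.13, and without control 1 those of Zfp574 and Zfp64 were -0.17 and -0.12. The remaining 19 members with lower plumbagin arrays included Zfp706, Zfp622 and Zfp384.

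**Figure D3:**
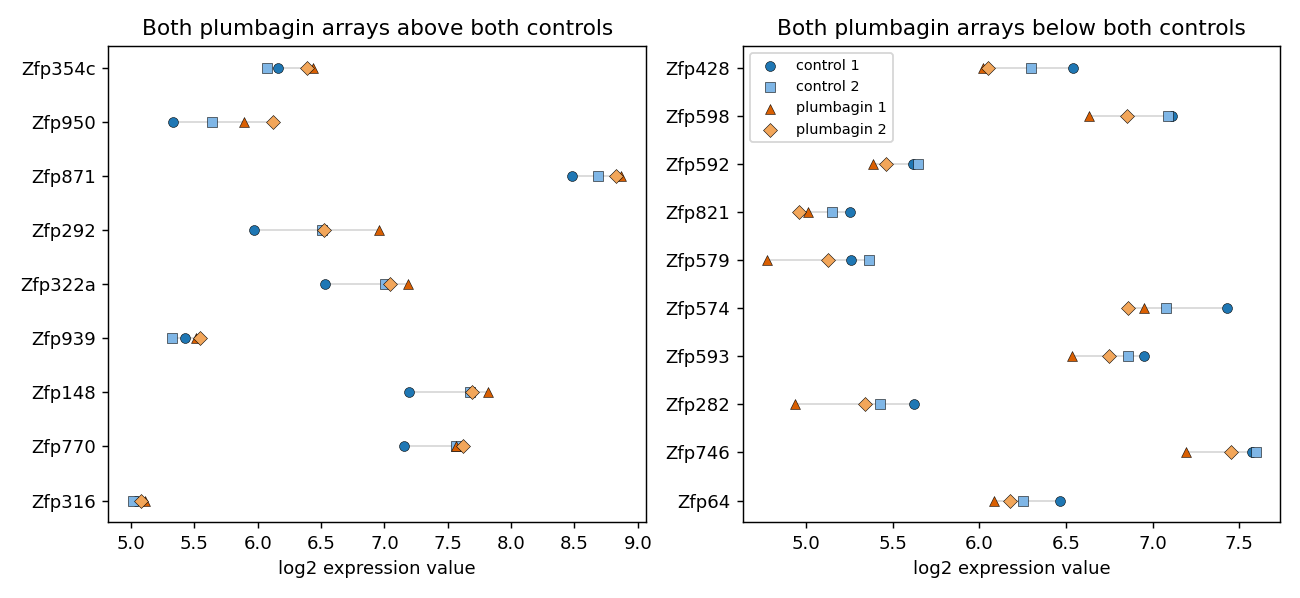
Log2 values on the 4 arrays (horizontal axis) of the 9 Zfp members with both plumbagin arrays above both controls (left) and of the 10 with the smallest p among the 29 below (right); each marker is 1 array and the grey line joins the lowest and highest. In Zfp292, Zfp322a, Zfp148 and Zfp770 control 2 and plumbagin 2 nearly coincide and control 1 stands to the left.

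Members with a known role were also read, whatever their values. Among DNA-binding activators and regulators, Zfp281, a G-rich element binder of pluripotent cells, read 7.41 and 8.08 in the controls and 7.93 and 8.05 with plumbagin (0.24 ± 0.24, and -0.090 without control 1). Zfp217, an oncogene of breast cancer, read 7.48 and 7.19 against 7.19 and 7.28 (-0.099 ± 0.13). Zfp384 read 8.31 and 8.29 against 8.12 and 8.23 (-0.13 ± 0.08). In Zfp281 and Zfp217 the groups overlapped, and in Zfp384 both plumbagin arrays were lower, by 0.19 in number 1 and 0.065 in number 2. Zfp131 read 7.86 and 8.77 against 8.23 and 8.66 (0.13 ± 0.35), with overlapping groups. Zfp64 belonged to the lower members above, and Zfp110, which read 7.59 and 7.93 against 7.05 and 7.84, differed by -0.32 ± 0.30 with overlapping groups.

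Among KRAB silencers, Zfp809, which represses integrated retroviruses, read 5.81 and 6.32 in the controls and 6.28 and 6.37 with plumbagin (0.26 ± 0.19, and 0.0061 without control 1). Zfp568, which represses a placental promoter of Igf2, read 6.01 and 5.98 against 5.90 and 6.12 (0.016 ± 0.11). Zfp445 read 7.75 and 8.57 against 8.32 and 8.56 (0.28 ± 0.30, and -0.13 without control 1). In Zfp809 and Zfp445 control 1 was the low array and the other 3 lay close together. Zfp42, Zfp335, Zfp423, Zfp521 and Zfp708 had means at or below the background, from 2.69 to 4.94. Zfp36, Zfp57, Zfp91 and Zfp143 were not analysed here.

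Among members that act on RNA or the spindle, Zfp326, which couples elongation to splicing, read 7.15 and 7.33 in the controls and 7.27 and 7.58 with plumbagin (0.18 ± 0.14). Zfp106, an RNA-binding protein needed by motor neurons, read 5.98 and 5.65 against 5.87 and 5.59 (-0.090 ± 0.17). The groups overlapped in both. Zfp207 read 8.53 and 8.23 against 8.39 and 8.29 on its brightest probe set, a difference of -0.041 ± 0.13. Its 2 other probe sets above the background, with means of 5.39 and 5.83, differed by 0.52 and 0.46. In each of them both plumbagin arrays were above both controls. The brightest probe set of this gene was thus opposite in sign to these others.

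The 24 members with a low control 1 are described next. Choosing genes by control 1 minus control 2 itself largely fixes that control 1 is their low array and control 2 their high one, and that number 1 differences are positive and number 2 differences negative, so the counts that follow support nothing. Control 1 was the lowest array in all 24, control 2 was the highest in 23, and plumbagin 1 was below plumbagin 2 in 21. Their median plumbagin minus control difference was 0.86 in number 1 and -0.24 in number 2. The most extreme was Zfp97, which read 5.32 and 7.51 in controls 1 and 2 and 6.83 and 7.20 in plumbagin 1 and 2. It had the highest mean difference of all members, 0.60 ± 0.76 (log2, SE), and its difference was -0.49 without control 1. Zfp97 was read by a probe set ending in _s_at, a kind marked as matching several transcripts. Both plumbagin arrays lay between the controls, so the group difference was within the spread of the untreated samples. These members were picked out after their values were seen.

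Zfp947 read 6.03 and 7.93 in the controls and 7.23 and 7.71 with plumbagin, and Zfp948 read 4.86 and 6.72 against 6.24 and 6.45. Zfp638, a large nuclear protein that silences retroviral DNA, read 6.26 and 7.93 against 7.36 and 7.94. Zfp62 read 6.52 and 8.13 against 7.37 and 7.93, and Zfp386 read 6.14 and 7.45 against 7.37 and 7.34. In each of these 5 genes control 1 was the lowest array, 0.845 (Zfp62) to 1.39 (Zfp948) below plumbagin 1. Their mean differences of 0.49, 0.56, 0.56, 0.32 and 0.56, in that order, had standard errors of 0.45 to 0.67 and turned to -0.47, -0.37, -0.28, -0.48 and -0.089 without control 1. Of 8 other probe sets above the background for the 24 members, all 8 were lower in control 1, by 0.063 to 1.44, and 3 of them by over 1. These 8 read only Zfp280d, Zfp386, Zfp62, Zfp638, Zfp644 and Zfp800, on the same control arrays. The other probe sets of Zfp947 and Zfp948 were below the background. Over all members, 43 of 53 other probe sets above the background had the sign of the main probe set in control 1 minus control 2, and 42 of 53 had it in plumbagin minus control.

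Zfp146 departed the other way, with plumbagin 1 as the outlying array. It read 5.68 and 6.07 in the controls and 4.40 and 6.72 with plumbagin. The numbers gave opposite differences, -1.29 in number 1 and 0.65 in number 2, the widest gap of any member, followed by Zfp97 (1.51 and -0.30) and Zfp729b (1.17 and -0.60). Zfp180 had the lowest mean difference, -0.57 ± 0.42, from 8.03 and 8.52 in the controls and 7.14 and 8.27 with plumbagin. In Zfp180 too, plumbagin 1 was the outlying array, and the number 2 difference was -0.25.

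Position in the genome was read from the order of protein-coding genes in RefSeq (assembly GRCm38.p6), used for neighbours alone. A Zfp gene lay directly beside another in 81 members and did not in 93. Control 1 minus control 2 had a median of -0.17 in members with a Zfp neighbour and -0.10 in those without, and the low control 1 was found in 11 and 13 of them. Treatment differences had medians of 0.020 and -0.039, and without control 1 of -0.11 in both.

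The runs of neighbouring genes differed more than this split. A run was taken as Zfp genes with at most 5 other protein-coding genes between neighbours. The limit of 5 and the runs described were chosen after the values were seen. The run with most members holds 23 Zfp genes, of which 11 were members: Zfp160, Zfp213, Zfp40, Zfp758, Zfp760, Zfp942, Zfp943, Zfp945, Zfp947, Zfp948 and Zfp994. In 8 of these 11 control 1 was over 1 log2 unit below control 2, with a median of -1.30 over the run. The other 3, Zfp945, Zfp213 and Zfp40, had a higher control 1, by 0.050, 0.18 and 0.31. The run's median treatment difference was 0.69 in number 1 and -0.23 in number 2, and -0.40 without control 1, and in 0 of its members were the groups apart. None of the 11 was read by a probe set of the kind marked as matching several transcripts (suffix _s_at or _x_at), although close relatives may still share probes, which was not tested.

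In the run of Zfp58, Zfp712, Zfp729a, Zfp729b, Zfp748, Zfp87 and Zfp953 control 1 was also below control 2 in 7 of 7 members, with a median of -0.71. Only Zfp729b, at -1.90, was past 1 log2 unit there, and its probe set ends in _s_at. In the run of Zfp524, Zfp579, Zfp580, Zfp628 and Zfp865 the median was 0.13, with 1 of 5 members below 0. In the run of Zfp212, Zfp282, Zfp398, Zfp467 and Zfp746 it was 0.15, with 2 of 5 below 0, and there both plumbagin arrays were below both controls in 3 of 5, against 15.2% of all genes and 18.3% of those above the background. The runs thus differed in the order of the untreated arrays, which is a description of 2 arrays and was not tested.

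**Figure D4:**
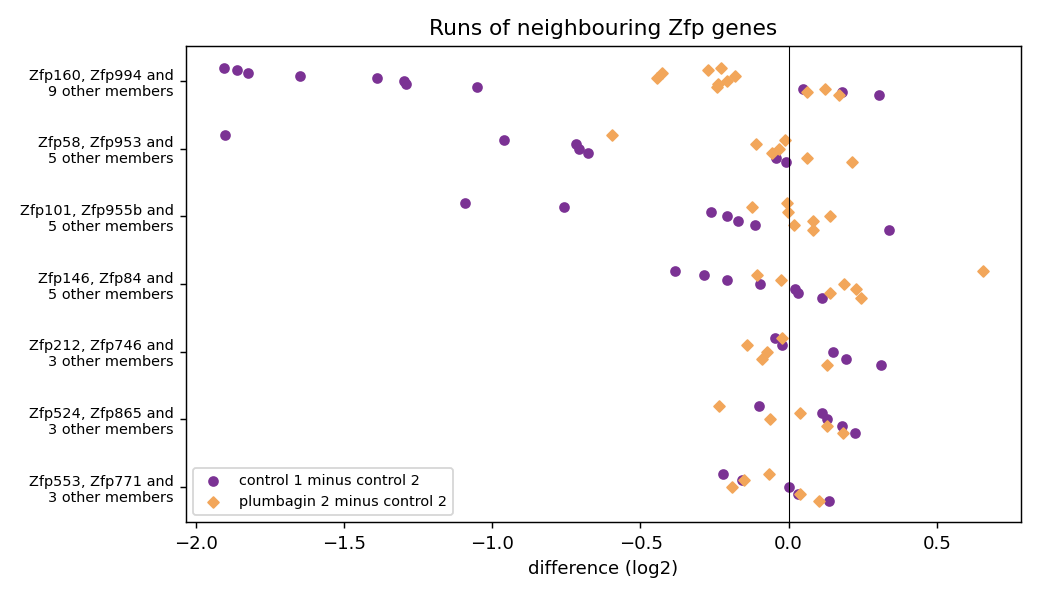
Log2 differences (horizontal axis) of the members of the 7 runs with at least 5 Zfp members (rows): control 1 minus control 2 in purple circles and plumbagin 2 minus control 2 in orange diamonds, 1 of each per member. In the top row 8 of 11 purple circles lie left of -1, while those of the run with Zfp524 and Zfp865 lie between -0.10 and 0.22.

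Promoters from RefSeq were matched for 142 of the 174 members (GRCm38.p6, from 250 bases before to 50 after the first listed start of each gene). CpG dinucleotides, which are dense in promoters of widely used genes, had a median of 17 per promoter in the members, 12 in the 22 matched members with a low control 1, and 7 over all 27025 genes of the table. The members had passed the background limit, while the genes of the table were taken whatever their expression. The contrasts with that table, here and for the motifs below, were thus not matched for expression and are not shown to be traits of Zfp promoters. The letters GGGCGG, a core of the Sp1 site, were found on either strand in 53.5% of members and 35.9% of all promoters. They were found in 15 of the 22 members with a low control 1. CCAAT, the NF-Y core, was found in 48.6% against 37.9%, and TATAAA, the TATA box core, in 6.34% against 14.2%. Of the 6 motifs searched, the other 3 were ACTACAA (6.34% against 3.45%), GCATGCGC (4.93% against 2.81%) and TGACGTCA, the cAMP response element (2.11% against 1.88%). A match of letters is a description and not a shown site.

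The 250 bases before the start are shown for 5 members, 1 from the higher, 2 from the lower and 2 from the run with a low control 1, to set their promoters side by side. Capitals mark any of the 6 motifs on either strand (CCAAT reads ATTGG on the other strand). CCAAT and GGGCGG overlap in 1 stretch of Zfp947, GCATGCGC is in Zfp428, and Zfp948 holds none in this window. The sequences are Zfp950 (chr19:61140841-61141090, minus strand), Zfp428 (chr7:24506837-24507086, plus strand), Zfp598 (chr17:24669437-24669686, plus strand), Zfp947 (chr17:22165978-22166227, minus strand) and Zfp948 (chr17:21566728-21566977, plus strand), each 5′ to 3′ on its gene's strand. They held 6, 12, 20, 4 and 7 CpG, in that order.
Zfp950: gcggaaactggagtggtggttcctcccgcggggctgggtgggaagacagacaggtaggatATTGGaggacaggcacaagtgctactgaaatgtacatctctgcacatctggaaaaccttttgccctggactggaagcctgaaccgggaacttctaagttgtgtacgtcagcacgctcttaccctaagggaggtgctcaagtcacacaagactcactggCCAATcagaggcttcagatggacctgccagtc
Zfp428: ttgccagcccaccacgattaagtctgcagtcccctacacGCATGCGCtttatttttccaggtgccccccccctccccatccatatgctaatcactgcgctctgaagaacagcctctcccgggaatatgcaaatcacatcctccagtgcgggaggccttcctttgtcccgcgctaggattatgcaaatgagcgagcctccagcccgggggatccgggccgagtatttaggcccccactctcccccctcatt
Zfp598: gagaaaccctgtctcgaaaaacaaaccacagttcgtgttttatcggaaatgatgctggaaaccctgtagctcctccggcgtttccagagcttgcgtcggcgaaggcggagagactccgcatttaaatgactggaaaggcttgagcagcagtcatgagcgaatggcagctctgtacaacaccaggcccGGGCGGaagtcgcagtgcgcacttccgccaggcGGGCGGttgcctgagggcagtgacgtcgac
Zfp947: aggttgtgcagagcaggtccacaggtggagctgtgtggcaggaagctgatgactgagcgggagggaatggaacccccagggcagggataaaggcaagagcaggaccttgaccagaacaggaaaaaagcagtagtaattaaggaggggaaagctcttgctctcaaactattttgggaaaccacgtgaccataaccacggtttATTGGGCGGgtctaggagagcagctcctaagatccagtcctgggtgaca
Zfp948: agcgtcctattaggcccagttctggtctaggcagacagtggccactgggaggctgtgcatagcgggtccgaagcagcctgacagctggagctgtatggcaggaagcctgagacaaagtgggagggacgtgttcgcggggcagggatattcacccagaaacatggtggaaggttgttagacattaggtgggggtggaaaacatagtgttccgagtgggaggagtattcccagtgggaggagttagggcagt

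The partners of KRAB proteins were read from a list of 28 corepressor and heterochromatin genes, 25 of them measured. With limma 0 passed the adjusted test. Both plumbagin arrays were above both controls in 2 (Cbx3 and Dnmt3a, against 10.2% of all genes) and below in 3 (Chd3, Morc2a and Cbx1, against 15.2%). Trim28, the corepressor itself, read 9.88 and 9.72 in the controls and 9.91 and 9.69 with plumbagin, and Setdb1 read 6.84 and 6.52 against 6.63 and 6.44. The number 1 arrays were the higher ones in both groups for both genes. Mphosph8, a subunit of the HUSH silencing complex, read 5.31 and 6.49 against 6.27 and 6.53, with the same low control 1 as the 24 Zfp members. Trim33, a relative of Trim28, read 7.47 and 7.82 against 7.81 and 7.83. The list's median was -0.036, against -0.012 over all genes and -0.052 over the other genes above the background, and its median control 1 minus control 2 was 0.15, opposite in sign to that of the Zfp members.

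Zfp36-type proteins carry CCCH fingers and direct mRNAs to deadenylation, and 22 of 25 listed decay genes were measured. With limma 0 passed, 2 were higher (Cnot6 and Cnot7) and 6 lower (Zfp36l2, Elavl1, Btg1, Pan2, Tob2 and Khsrp) on both plumbagin arrays, against 10.2% and 15.2% of all genes and 5.67% and 18.3% of those above the background. Zfp36l2, a decay factor, read 8.37 and 8.27 against 7.78 and 8.16, and Elavl1, which stabilises AU-rich mRNAs, read 9.34 and 8.86 against 8.60 and 8.77. Plumbagin 1 was the lowest array of both. Their differences were -0.35 ± 0.16 and -0.42 ± 0.19 (log2, SE). Zfp36l1, of the same family as Zfp36l2, went the other way, at 8.79 and 8.31 against 8.86 and 8.42. It was higher by 0.068 in number 1 and 0.11 in number 2, with overlapping groups (0.088 ± 0.23).

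Median log2 values lay between 4.32 and 4.39 over all probe sets, and upper quartiles between 6.26 (plumbagin 1) and 6.36. The 7 melanocyte markers read had mean levels on the arrays between 11.4 and 11.6, and all were far above the background. Fibroblast, macrophage, T cell, endothelial and keratinocyte lists had array means between 3.47 and 4.63, below the background, with Cd3e (6.09 to 6.34) and Kdr (5.09 to 5.24) above it on every array. Control probe sets at the 5′ and 3′ ends of β-actin, a measure of RNA quality, read 11.7 and 12.2 in control 1, and 11.6 and between 12.1 and 12.2 on the other 3 arrays. The 3′ control of pyruvate carboxylase read 5.91 and 6.14 in controls 1 and 2 and 5.64 and 6.15 in plumbagin 1 and 2, lower on both number 1 arrays, as the members were at the median; its part in the members' values was not tested. Fewer cells with a transcript and less of it per cell cannot be told apart in these bulk samples.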

How the data were processed

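Total RNA of each sample was hybridised to 1 Affymetrix mouse array. The authors deposited log2 values for each probe set, and the submitters' processing notes name RMA, Expression Console and Transcriptome Analysis Console without a version. RMA corrects background, makes the arrays' distributions alike and summarises probes, so a shift of most genes 1 way would be removed and weak signals compressed. Of 45141 probe sets, 104 were controls, 28898 had 1 gene symbol in the platform annotation, 551 had several and 15588 were unnamed here. For 28689 probe sets the Entrez number was found in RefSeq (GRCm38.p6) and the symbol was taken from there, whether or not it differed. The symbols of the platform annotation gave the same 174 members. Each of 17097 genes was read by its brightest probe set.

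Groups came from the sample titles. Plumbagin was compared with control by lmFit and eBayes of limma 3.58.1 (R 4.3.3), two-sided, without covariates, with Benjamini-Hochberg adjustment over all genes. The code was tested on simulated data. With 4 arrays in all, their number limits the precision. Medians, counts and comparisons at like brightness are descriptions. The members and lists were chosen with earlier results of these data known. Named members were the 10 smallest p in each direction with groups apart (9 existed above the controls), the 10 brightest, those at the limit, the 3 widest gaps between numbers, Zfp950 and Zfp354c, and a list of known roles; each partner list gave its 4 smallest p, with Trim28 and Setdb1. Members described for a low control 1, Zfp180, Mphosph8, Zfp36l1 and the list genes with groups apart outside those 4 were named after their values were seen, as were the runs. Proteins were not used here, so a planned split by KRAB box was not made. All 6 promoter motifs searched are reported. The alternatives were another probe set rule, 3 scalings, other filters, a trend, a replicate block and leaving out each array.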

Additional observations from a re-analysis of the deposited data

How the results depend on the processing

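With limma 0 members passed an adjusted p of 0.05 under any alternative; by the same fit 4 members had an unadjusted p under 0.05, and no other tool was run. The smallest adjusted p of the 50 named members under any of 12 alternatives was 0.792. The count with both plumbagin arrays higher moved from 9 (5.17%) to 15 after quantile normalization (8.62%, against 10.5% of all genes) and to 20 after cyclic loess (11.5%, against 11.9%). Over all 295 measured Zfp genes it was 25 (8.47%, against 10.2% of all genes). The count lower moved from 29 (16.7%, against 18.3% of the genes above the background) to 19 over the 98 members at least 1 log2 unit above the background. The count with a low control 1 moved from 24 to 14 there. Both fell by construction over fewer genes, and the share of other genes at that level was not computed. Leaving out each array in turn gave a median difference of -0.11 to 0.046, a median relative to genes of like brightness of -0.082 to 0.085, 16 to 65 members higher and 38 to 95 lower, the last 2 counted over 3 arrays. The sign of 24 named members held under all 12 alternatives. For members with groups apart this was partly fixed, because leaving out 1 array cannot reverse their sign. The filter, the trend and the replicate block change no difference, so they could not reverse any sign. Outside leaving out an array, Zfp316 (-0.0081) and Zfp207 (0.36) reversed with probe sets averaged, Zfp275 (0.030) and Zfp207 (0.0069) after quantile normalization, Zfp568 (-0.0027) after centring, and Zfp275 (0.048) and Zfp207 (0.022) after cyclic loess; the cause was not tested. With an array left out, these reversed within the ranges given: Zfp24 (-0.19 to 0.28), Zfp275 (-0.083 to 0.054), Zfp131 (-0.33 to 0.59), Zfp207 (-0.19 to 0.11), Zfp445 (-0.13 to 0.70), Zfp97 (-0.49 to 1.69), Zfp729b (-0.66 to 1.24), Zfp106 (-0.26 to 0.076), Zfp217 (-0.24 to 0.044), Zfp281 (-0.090 to 0.57), Zfp947 (-0.47 to 1.44), Zfp948 (-0.37 to 1.49), Zfp942 (-0.78 to 1.04), Zfp638 (-0.28 to 1.39), Zfp994 (-0.64 to 1.01), Zfp930 (-0.55 to 1.10), Zfp62 (-0.48 to 1.13), Zfp758 (-0.47 to 0.91), Zfp518a (-0.48 to 0.86), Zfp386 (-0.089 to 1.21), Zfp330 (-0.31 to 0.13), Zfp568 (-0.093 to 0.12), Zfp93 (-0.25 to 0.084), Zfp146 (-1.48 to 0.85) and Zfp110 (-0.71 to 0.078).

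Samples with the same number deviated together (r = 0.536 over all genes, 0.618 over those above the background, across genes, which are not independent replicates), but the labels state no pairing and only 2 pairs exist. With the replicate block 0 members passed. In this balanced design the block changes no difference and no array value. The median difference of 0.0054 and the counts of 9 members higher and 29 lower were thus fixed and are no check on pairing. A planned split by KRAB box was not run. Signal over background limits the 28 members with an array at or below the background.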

Other observations

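The low control 1 was not limited to Zfp genes: 137 of the 8653 named genes above the background had it by over 1 log2 unit, and 24 of these were Zfp members. Esf1, a nucleolar factor of ribosomal RNA processing, read 5.58 and 7.91 in controls 1 and 2 and 6.21 and 7.62 in plumbagin 1 and 2. Eea1, a tether of early endosomes, read 5.56 and 7.35 against 6.53 and 7.22, and Lig4, the ligase of non-homologous end joining, read 6.62 and 8.22 against 7.02 and 7.96. In these 3 genes both plumbagin arrays lay between the controls. They were chosen after their values were seen.

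Other zinc finger families above the background also had a control 1 below control 2 at the median: Zbtb (25 genes, -0.15), Zkscan (6 genes, -0.13), Zc3h (10 genes, -0.13) and Zscan (3 genes, -0.056). Klf was the exception (9 genes, 0.035). In Zkscan both plumbagin arrays were above both controls in 3 of 6 genes and below in 0, and in Zbtb the counts were 2 and 4 of 25. They were 0 and 0 of 10 in Zc3h, 0 and 1 of 9 in Klf, and 0 and 1 of 3 in Zscan. The shares over all named genes above the background were 5.67% and 18.3%. The families are small and were not tested.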
